A study of Mus musculus with 8 samples.

Results

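The 35 genes described here code for the chaperones, oxidoreductases, degradation machinery, stress sensors and translocation channel of the endoplasmic reticulum (ER). They were taken by symbol, and all 35 were found among the 26894 genes that carried a symbol on the array. Each gene was read from its probe with the highest mean in the authors' normalized table, and its other probes were set beside it. All 35 genes were well above background on all 8 arrays, so no member was lost to the filter on dim probes.

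Islet samples of βUCP2Tg mice (n = 4) and wild-type (WT) littermates (n = 4) were profiled on one-colour Agilent mouse expression arrays. βUCP2Tg mice carry mouse *Ucp2* cDNA behind the rat insulin 2 promoter, which drives it in β-cells, and both groups were male and on a C57BL6/J background. The mice of the study were 8 to 20 weeks old, and its islets came from mice of 8 to 12 weeks. Before RNA was taken, the islets of both groups were kept for 8 h in medium with 200 mg/dL glucose, so neither group is an untreated baseline. Handpicked islets also contain cells other than β-cells, and in such bulk RNA fewer cells of a type and less RNA per cell cannot be told apart. The *Ucp2* probe with the stronger signal gave 7.71, 7.50, 7.33 and 6.99 in βUCP2Tg islets and 1.18, 0.92, 1.03 and 1.46 in WT islets. The second *Ucp2* probe differed far less, by 0.44 (adjusted p = 0.0987), at 0.84, 0.90, 0.89 and 0.78 against 0.37, 0.22, 0.35 and 0.73, also without overlap. These and all levels below are log2 signals relative to the 75th percentile of the same array, and differences are βUCP2Tg minus WT on the log2 scale. Levels of different probes cannot be set against each other.

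The arrays held 33191 to 36320 probes well above background, and no spot was saturated. All 9 islet markers were measured on every array, and their mean per array lay within 0.22 of its mean over the 8 arrays. The 22 measured acinar markers, which report exocrine tissue carried along with islets, were all lower in the βUCP2Tg mean, but the arrays overlapped: relative to the 8-array mean they averaged -2.27, -0.79, -1.80 and 1.66 in βUCP2Tg replicates 1 to 4 and 0.86, 1.89, 2.24 and -1.79 in WT replicates 1 to 4. The 12 genes of the hypoxia response averaged -0.97, -0.99, -0.95 and 0.46 in βUCP2Tg and -0.12, 0.81, 0.85 and 0.90 in WT islets. βUCP2Tg replicate 4 stood away from its group in both lists, WT replicate 4 in the acinar markers and WT replicate 1 in the hypoxia markers, and the calls that change without them are given both ways. A single slide carried all arrays, and each genotype filled a row of it, so row and genotype cannot be told apart.

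The ER folds secreted proteins such as proinsulin, and β-cells therefore depend on a large folding capacity. When unfolded proteins accumulate, the sensors IRE1α, ATF6 and PERK start the unfolded protein response: IRE1α splices *Xbp1* mRNA, ATF6 is cut to release a transcription factor, and PERK slows translation and favours *Atf4*. The XBP1 and ATF6 factors then act on chaperone, disulfide isomerase and ER-associated degradation (ERAD) genes, many of which carry an ER stress element close to their start.

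Promoter sequence was at hand for 30 of the 35 genes, from RefSeq on build GRCm38.p6, as 250 bases before to 50 bases after the transcription start. *Manf*, *Atf6*, *Hyou1*, *Derl1* and *Sec61a1* had no entry. On either strand, 9 of the 30 genes (30%) held an exact ER stress element, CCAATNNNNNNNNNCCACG, against 0.137% of all 27025 genes with a promoter. These 9 made up 24.3% of the 37 genes that held the element, and the other ER genes examined, of which 59 had a promoter, held it in 0. The second form of the element, ATTGGNCCACG, was found in *Dnajb11* and *Herpud1*, against 0.0444% of all genes. The core TGACGTG, bound by ATF6 and XBP1, was found in *Hspa5* and *Txndc5* (6.67% of the genes, against 2.22% of all genes), and it overlapped neither of the other motifs. The promoters of 7 genes are shown because they place the elements beside the genes whose values follow, with motif matches in capitals. *Hspa5*, *Hsp90b1* (which holds the element on both strands), *Calr* and *Pdia6* code for abundant folding factors, *Dnajb11* holds the second form just after its start, and *Syvn1* and *Derl3* are ERAD genes with the lowest and the highest difference among the 9 genes with the element.
*Hspa5* promoter, chr2:34771840-34772139, plus strand: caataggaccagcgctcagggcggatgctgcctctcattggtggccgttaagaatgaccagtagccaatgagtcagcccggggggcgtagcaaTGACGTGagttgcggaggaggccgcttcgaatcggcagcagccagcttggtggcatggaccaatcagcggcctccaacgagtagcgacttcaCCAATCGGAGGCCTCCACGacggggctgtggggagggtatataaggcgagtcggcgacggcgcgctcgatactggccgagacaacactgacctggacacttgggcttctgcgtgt
*Hsp90b1* promoter, chr10:86705395-86705694, minus strand: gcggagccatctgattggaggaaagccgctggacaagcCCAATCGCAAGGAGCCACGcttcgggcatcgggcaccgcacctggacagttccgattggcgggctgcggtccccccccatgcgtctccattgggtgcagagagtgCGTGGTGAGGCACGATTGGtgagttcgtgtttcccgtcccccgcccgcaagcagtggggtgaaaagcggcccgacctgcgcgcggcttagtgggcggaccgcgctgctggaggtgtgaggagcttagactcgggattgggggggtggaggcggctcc
*Calr* promoter, chr8:84846882-84847181, minus strand: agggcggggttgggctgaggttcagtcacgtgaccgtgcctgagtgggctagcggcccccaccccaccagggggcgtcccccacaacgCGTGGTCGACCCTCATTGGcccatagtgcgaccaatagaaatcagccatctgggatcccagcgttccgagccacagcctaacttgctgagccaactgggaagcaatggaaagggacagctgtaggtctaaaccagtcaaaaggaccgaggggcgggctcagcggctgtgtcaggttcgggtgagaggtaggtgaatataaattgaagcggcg
*Pdia6* promoter, chr12:17266339-17266638, plus strand: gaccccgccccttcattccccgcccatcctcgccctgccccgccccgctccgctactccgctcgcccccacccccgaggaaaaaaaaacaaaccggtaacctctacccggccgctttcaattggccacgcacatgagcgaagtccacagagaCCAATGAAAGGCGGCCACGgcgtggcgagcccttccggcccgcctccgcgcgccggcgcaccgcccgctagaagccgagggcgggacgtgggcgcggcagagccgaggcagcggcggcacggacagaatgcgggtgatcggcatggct
*Dnajb11* promoter, chr16:22857595-22857894, plus strand: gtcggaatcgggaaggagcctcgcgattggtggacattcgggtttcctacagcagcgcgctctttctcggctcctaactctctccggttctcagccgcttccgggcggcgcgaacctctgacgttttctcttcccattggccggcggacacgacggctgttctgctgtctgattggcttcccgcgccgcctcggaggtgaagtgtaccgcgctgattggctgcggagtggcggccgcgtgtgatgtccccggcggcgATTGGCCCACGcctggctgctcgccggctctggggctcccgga
*Syvn1* promoter, chr19:6046326-6046625, plus strand: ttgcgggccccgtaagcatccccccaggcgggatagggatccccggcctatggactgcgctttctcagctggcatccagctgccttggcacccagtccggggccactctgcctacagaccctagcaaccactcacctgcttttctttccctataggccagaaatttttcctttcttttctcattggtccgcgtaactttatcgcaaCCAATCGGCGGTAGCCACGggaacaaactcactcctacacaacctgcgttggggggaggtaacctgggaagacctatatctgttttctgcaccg
*Derl3* promoter, chr10:75893148-75893447, plus strand: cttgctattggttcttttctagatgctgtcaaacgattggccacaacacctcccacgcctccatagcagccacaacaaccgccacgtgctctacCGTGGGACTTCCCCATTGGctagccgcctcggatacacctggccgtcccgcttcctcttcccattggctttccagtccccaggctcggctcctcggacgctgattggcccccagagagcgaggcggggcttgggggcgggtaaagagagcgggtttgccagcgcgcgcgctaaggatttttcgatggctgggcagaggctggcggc

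Of the 9 genes with the ER stress element, 8 were lower in the βUCP2Tg mean, with a median difference of -0.24 and a range from -0.35 (*Syvn1*) to 0.27 (*Derl3*). Of these, only *Pdia6* was lower at an unadjusted p under 0.05, as were 15.2% of all probes. The 19 genes whose promoter held neither form of the element had a median difference of -0.08, 12 of them were lower, and 3 were lower at an unadjusted p under 0.05, a share near that of all probes. They include *Sel1l*, *Edem2*, *Edem3*, *Derl2* and *Os9*, ERAD genes that were higher. Of the genes without a promoter entry, *Hyou1*, *Manf* and *Atf6* were lower at that threshold and *Derl1* and *Sec61a1* were not. A difference between genes with and without the element was not tested. The motif search is strict, and elements that deviate by a base or lie outside this window were not counted.

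**Figure D1:**
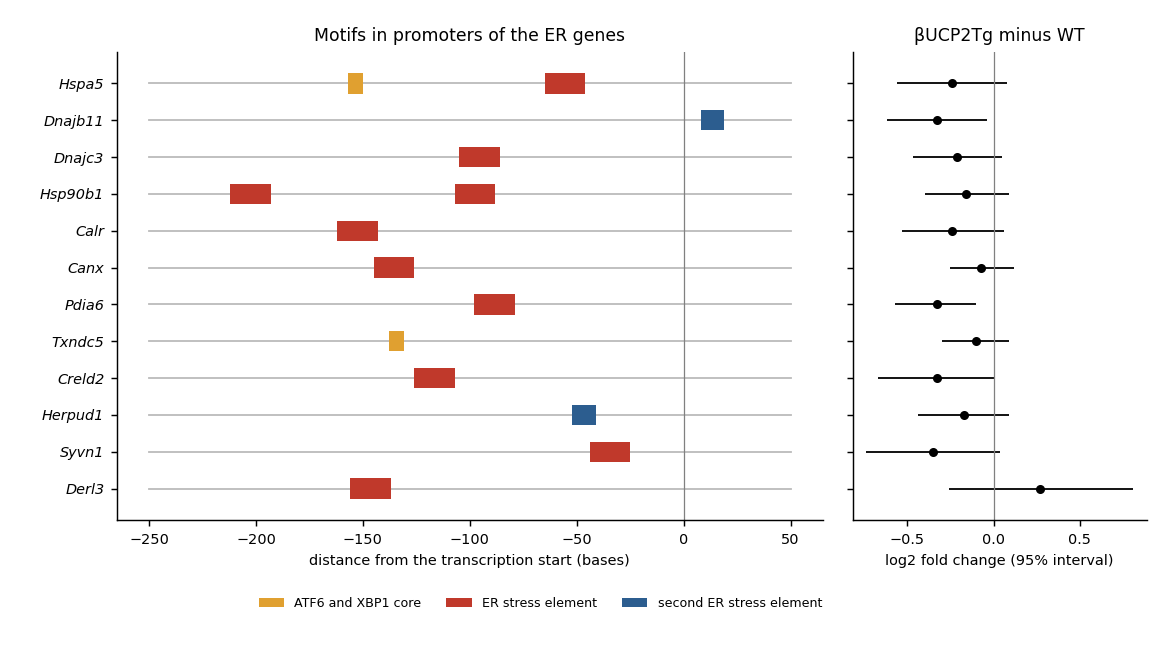
Left, position of the motif matches in the promoters of the 12 genes that hold one, in bases from the transcription start (vertical line). Right, log2 fold change of the same gene between 4 βUCP2Tg and 4 WT arrays, with its 95% interval from the limma fit. The matches lie between -212 and 18, and every gene but *Derl3* is at or below -0.07.

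In islets of βUCP2Tg mice, the differences of the 35 genes were small and most often downward. None of the genes passed an adjusted p of 0.05, with or without a limit of 1.5-fold on the change (limma, adjusted over 35363 probes). The smallest adjusted p was 0.099 (*Hyou1*) and the largest 0.939 (*Dnajc10*). Among all probes tested, 0.206% were called higher, 0.204% were called lower and 0.427% passed the adjusted p in either direction. At an unadjusted p under 0.05, 8 of the 35 genes (22.9%) were lower and 0 were higher. The same threshold took 15.2% of all probes lower and 9.99% higher. The 8 genes were *Hyou1*, *Dnajb9*, *Dnajb11*, *Sdf2l1*, *Pdia6*, *Manf*, *Atf6* and *Ssr1*. The groups did not overlap for *Hyou1*, *Pdia6* and *Atf6b*, which were lower, and for *Os9*, which was higher, where 7.17% and 5.25% of all probes had such non-overlapping groups.

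In all, 26 genes were lower and 9 were higher in the mean, with a median of -0.16, while the median of all probes was -0.023 and their middle 50% lay between -0.25 and 0.18. The extremes were *Dnajb9* at -0.51 and *Derl3* at 0.27. On the brightest probes, the 95% interval of every one of the 35 differences lay within -0.90 and 0.81, so that none extended to a 2-fold change. Intervals of several dimmer probes did, such as -1.13 to -0.21 on a *Hspa5* probe and -2.59 to -0.74 on a *Hyou1* probe. The median of the members was -0.04 after quantile normalization and -0.09 after scaling to the array median, where the median of all probes was 0.03 and 0.04. With either scaling 3 genes were lower at an unadjusted p under 0.05, a smaller share than the 12.9% and 11.9% of all probes. The 9 islet markers had a median of -0.13, with 7 of them lower. The calls depended on WT replicate 1. It was the lowest WT array for 20 of the 35 genes and often lay with the βUCP2Tg arrays. Without it, 5 genes passed the adjusted p (*Hyou1*, *Dnajb9*, *Pdia4*, *Manf* and *Ssr1*, all lower), 2 of them by more than 1.5-fold (as were 5.67% of all probes), and 15 were lower at an unadjusted p under 0.05. More probes passed in general in that fit, in which 8.44% of all probes were lower at the adjusted p and 18.4% at an unadjusted p under 0.05. Without WT replicate 4 or without βUCP2Tg replicate 4, 0 genes passed the adjusted p, and 4 and 5 genes were lower at an unadjusted p under 0.05, below the 15.4% and 17.7% of all probes in those fits. Without βUCP2Tg replicate 4, 3.71% of all probes were lower at the adjusted p.

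**Figure D2:**
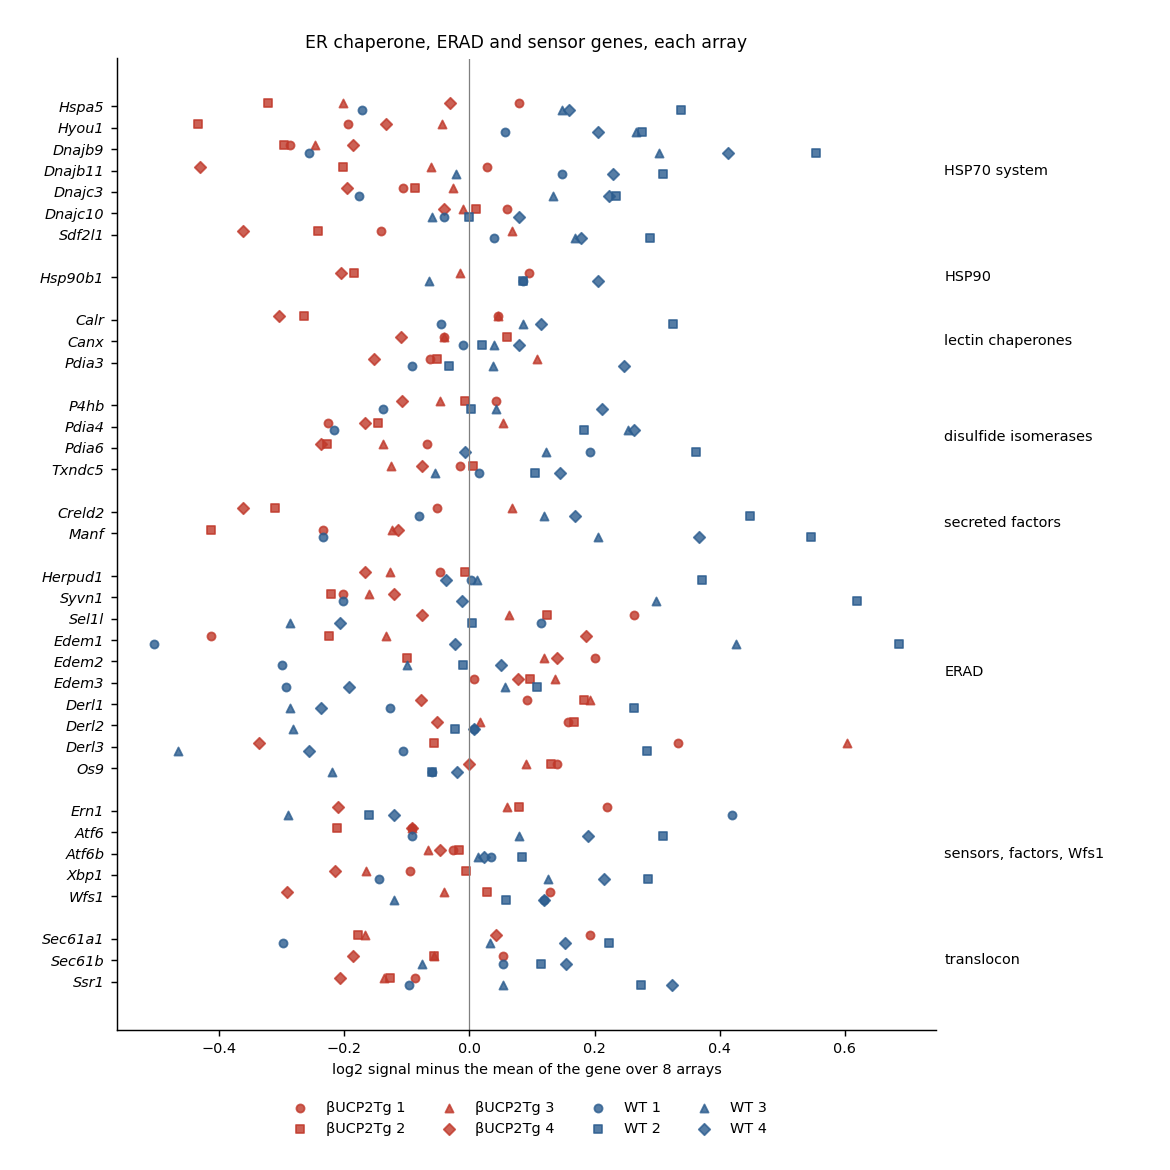
Log2 signal of each of the 35 genes in each of the 8 arrays, minus the mean of that gene over the arrays, ordered by role. Red symbols are βUCP2Tg and blue symbols WT, with 1 symbol shape per replicate number, and the WT circle (replicate 1) lies with the red symbols for *Dnajb9*, *Manf*, *Syvn1* and *Ssr1*.

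**Figure D3:**
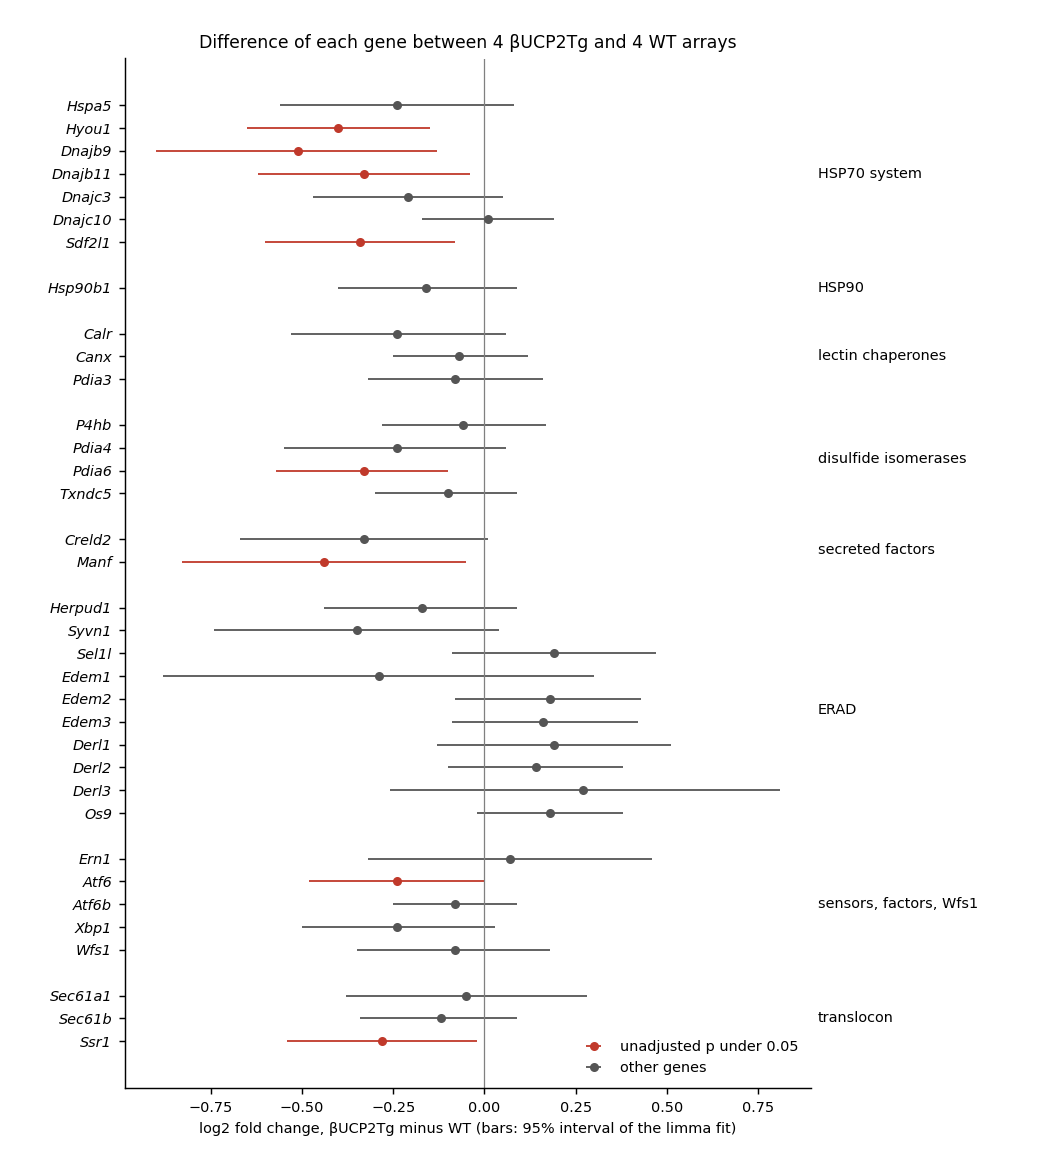
Log2 fold change (βUCP2Tg minus WT, n = 4 and 4) of each gene with its 95% interval from the limma fit, ordered by role. Genes at an unadjusted p under 0.05 are red, and all 8 of them lie below 0, whereas 7 of the 10 ERAD genes lie above 0.

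The 7 genes of the HSP70 system had the lowest median of the larger roles, -0.33, and 6 of them were lower. *Hspa5* codes for BiP, the HSP70 chaperone of the ER lumen that also holds the stress sensors inactive. It measured 7.16, 6.76, 6.88 and 7.05 in βUCP2Tg and 6.91, 7.42, 7.23 and 7.24 in WT islets, a difference of -0.24 (95% interval -0.56 to 0.08, adjusted p = 0.309). WT replicate 1 lay below βUCP2Tg replicates 1 and 4, and the other WT arrays lay above all βUCP2Tg arrays. *Hyou1*, a large HSP70 relative that exchanges nucleotide on BiP and is also known as hypoxia up-regulated 1, gave -0.09, -0.33, 0.06 and -0.03 in βUCP2Tg and 0.16, 0.38, 0.37 and 0.31 in WT islets. Every βUCP2Tg array lay under every WT array, and the difference of -0.40 had an adjusted p of 0.099, which became 0.038 without WT replicate 1 and 0.0382 after normexp background correction, where 8.91% of all probes were lower at the adjusted p. *Dnajb9*, the co-chaperone ERdj4 that directs BiP to misfolded clients and to IRE1α, was at 3.86, 3.85, 3.90 and 3.96 in βUCP2Tg islets. The WT arrays gave 3.89, 4.70, 4.45 and 4.56, so that WT replicate 1 sat among the transgenic arrays and the other 3 stood clearly above them. The difference of -0.51 (1.42-fold lower, adjusted p = 0.125) was -0.68 without WT replicate 1 (adjusted p = 0.014).

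*Dnajb11* (ERdj3), which hands nascent proteins to BiP, read 3.98, 3.75, 3.89 and 3.52 in βUCP2Tg islets. Its WT values were 4.10, 4.26, 3.93 and 4.18, for a difference of -0.33 (adjusted p = 0.157), with 1 WT array below the highest βUCP2Tg array. *Sdf2l1*, a partner of ERdj3, showed 2.96, 2.86, 3.17 and 2.74 against 3.14, 3.39, 3.27 and 3.28. Only βUCP2Tg replicate 3 crossed WT replicate 1, and the difference was -0.34 (adjusted p = 0.13). *Dnajc3* (p58IPK), a co-chaperone that also restrains PERK, differed by -0.21 and *Dnajc10* (ERdj5), a reductase that unlocks substrates for degradation, by 0.01, neither at an unadjusted p under 0.05. The side of all 7 genes was the same after quantile and median scaling. The hypoxia markers moved in the same direction as this group between the genotypes, with a median of -1.32. Of these 12 markers, 9 were lower at an unadjusted p under 0.05, as were 15.2% of all probes. None of the 12 passed the adjusted p, and only for *Vegfa* did the groups not overlap. WT replicate 1 was the lowest WT array for both (-0.12 for the hypoxia markers, -0.06 for the HSP70 system), and the other WT arrays were high for both. βUCP2Tg replicate 4 stood at 0.46 for the hypoxia markers and at -0.20 for the HSP70 system. Their part in the result was not tested.

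Among the other luminal chaperones and folding enzymes, every gene was lower in the mean and 1 of 8 had an unadjusted p under 0.05, where 15.2% of all probes were lower. *Hsp90b1* (GRP94), the HSP90 of the ER, gave 7.44, 7.16, 7.33 and 7.14 in βUCP2Tg and 7.43, 7.43, 7.28 and 7.55 in WT islets. Its groups overlapped widely, with a difference of -0.16 (95% interval -0.40 to 0.09). *Calr* codes for calreticulin, a calcium-binding lectin chaperone, and measured 4.36, 4.05, 4.36 and 4.01 against 4.27, 4.64, 4.40 and 4.43. Here βUCP2Tg replicates 2 and 4 were low and replicates 1 and 3 lay within the WT range, and the difference was -0.24 (95% interval -0.53 to 0.06, adjusted p = 0.28). *Canx*, its membrane-bound relative calnexin, differed by -0.07 and *Pdia3*, the isomerase that works with both lectins, by -0.08.

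*Pdia6*, a disulfide isomerase that also binds the luminal part of IRE1α, showed the clearest separation of the isomerases. It read 7.27, 7.11, 7.20 and 7.10 in βUCP2Tg islets and 7.53, 7.70, 7.46 and 7.33 in WT islets, without overlap, and WT replicate 1 lay within the other WT arrays. The difference was -0.33 (95% interval -0.57 to -0.10), or 1.26-fold, with an adjusted p of 0.115. *Pdia4* (ERp72) had means of 1.40 and 1.64, and its difference of -0.24 (adjusted p = 0.283) became -0.36 without WT replicate 1 (adjusted p = 0.0484). The differences of *P4hb*, which codes for protein disulfide isomerase itself, and *Txndc5* were -0.06 and -0.10. *Canx*, *Pdia3* and *P4hb* were slightly higher instead after quantile normalization.

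The pair of genes for secreted or luminal factors induced by the unfolded protein response had a median of -0.38. *Manf*, a factor that protects β-cells under ER stress, measured 4.04, 3.86, 4.15 and 4.16 in βUCP2Tg and 4.04, 4.82, 4.48 and 4.64 in WT islets. As for *Dnajb9*, WT replicate 1 lay among the βUCP2Tg arrays and the other 3 WT arrays lay above all of them. The difference was -0.44 (1.36-fold lower, adjusted p = 0.161) and, without WT replicate 1, -0.59 (adjusted p = 0.0256). *Creld2* had means of 6.42 and 6.75 (difference -0.33, adjusted p = 0.211).

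The ERAD genes, which draw misfolded proteins back to the cytosol for destruction, were the only role with a median above 0, at 0.17. Of the 10 genes, 7 were higher and 3 lower, and 0 had an unadjusted p under 0.05 in either direction (15.2% of all probes were lower and 9.99% higher). *Os9*, a lectin that selects glycoproteins for the SEL1L complex, gave 4.65, 4.64, 4.60 and 4.51 in βUCP2Tg islets and 4.45, 4.45, 4.29 and 4.49 in WT islets. All βUCP2Tg arrays were above all WT arrays, by 0.18 in the mean (95% interval -0.02 to 0.38, adjusted p = 0.236). *Sel1l*, the scaffold of the complex, was at 4.69 and 4.50 (difference 0.19), and the mannosidase-like *Edem2* and *Edem3* differed by 0.18 and 0.16. The channel-like derlins *Derl1*, *Derl2* and *Derl3* differed by 0.19, 0.14 and 0.27. Among these 3 the arrays of *Derl3* spread most, from 3.12 to 4.06 in βUCP2Tg and from 2.99 to 3.74 in WT islets, and its difference ranged from 0.12 to 0.43 with 1 array left out, the latter without βUCP2Tg replicate 4.

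The 3 lower ERAD genes were *Syvn1* (-0.35), which codes for the ubiquitin ligase HRD1, *Herpud1* (-0.17), its membrane partner, and *Edem1* (-0.29). The difference of *Syvn1* had an adjusted p of 0.235, with βUCP2Tg arrays between 4.74 and 4.84 and WT arrays between 4.76 and 5.58. *Edem1* varied from 1.41 to 2.60 among WT arrays alone, and its difference was -0.51 without WT replicate 1. Without WT replicate 2 the differences of *Syvn1*, *Herpud1* and *Edem1* were -0.20, -0.08 and -0.11. Sides of the 10 ERAD genes were the same after quantile and median scaling, and *Edem3* and *Derl1* turned lower when all measured probes of a gene were averaged. A difference between the ERAD genes and the chaperones was not tested.

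Among the sensors and their factors, 1 of 5 genes had an unadjusted p under 0.05, near the 15.2% of all probes that were lower. *Atf6* measured 1.75, 1.63, 1.75 and 1.75 in βUCP2Tg islets and 1.75, 2.15, 1.92 and 2.03 in WT islets, a difference of -0.24 (adjusted p = 0.197). The βUCP2Tg arrays were tightly grouped, and WT replicate 1 stood with them. *Atf6b*, its weaker relative, was at -0.94, -0.93, -0.98 and -0.96 against -0.88, -0.83, -0.90 and -0.89. These groups did not overlap, but the difference was only -0.08 (95% interval -0.25 to 0.09, adjusted p = 0.519). *Xbp1* gave 6.23, 6.32, 6.16 and 6.11 in βUCP2Tg and 6.18, 6.61, 6.45 and 6.54 in WT islets, a difference of -0.24 (95% interval -0.50 to 0.03, adjusted p = 0.235). WT replicate 1 was again within the βUCP2Tg range. Spliced and unspliced *Xbp1* were not separated here.

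*Ern1*, which codes for IRE1α, read 3.74, 3.60, 3.58 and 3.31 in βUCP2Tg and 3.94, 3.36, 3.23 and 3.40 in WT islets on its brightest probe. The groups overlapped and the difference was 0.07 (95% interval -0.32 to 0.46, adjusted p = 0.816). Its 4 other probes were all lower, and the mean of all measured probes gave -0.49 (adjusted p = 0.0877). Some of these probes were not well above background on every array. *Wfs1*, an ER membrane protein of β-cells whose loss causes Wolfram syndrome, differed by -0.08 (adjusted p = 0.682).

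Of the translocation genes, *Ssr1*, a subunit of the translocon-associated protein complex, was the lowest. It gave 4.12, 4.08, 4.07 and 4.0 in βUCP2Tg islets. The WT values were 4.11, 4.48, 4.26 and 4.53, again with replicate 1 alone among the βUCP2Tg arrays, and the difference of -0.28 (adjusted p = 0.173) became -0.36 without that array (adjusted p = 0.0465). The channel subunits *Sec61a1* and *Sec61b* differed by -0.05 and -0.12.

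Averaged over the 35 genes, the arrays stood at -0.01, -0.10, -0.02 and -0.14 in βUCP2Tg and at -0.07, 0.21, 0.02 and 0.10 in WT islets relative to the 8-array mean. WT replicate 2 was the highest WT array for 20 genes and βUCP2Tg replicate 4 the lowest βUCP2Tg array for 22. Some arrays ranked alike for the ER genes and the markers and others did not. WT replicate 1 was the lowest WT array for the ER genes and the hypoxia markers, and WT replicate 2, the highest for the ER genes, had hypoxia and acinar markers at 0.81 and 1.89. βUCP2Tg replicate 4 was the lowest for the ER genes with hypoxia and acinar markers above the 8-array mean, and WT replicate 4 stood at 0.10 for the ER genes with acinar markers at -1.79. Without both WT replicate 1 and βUCP2Tg replicate 4, *Hyou1* (-0.47, adjusted p = 0.0368), *Dnajb9* (-0.70, adjusted p = 0.00683) and *Manf* (-0.63, adjusted p = 0.0199) passed the adjusted p. *Pdia4* (-0.34, adjusted p = 0.0628) and *Ssr1* (-0.34, adjusted p = 0.0607) did not. In that fit 13.1% of all probes were lower at the adjusted p, a larger share than 3 of 35 genes. Among markers of other cells, the means per array lay between -0.47 and 0.43 for 10 macrophage genes and between -0.31 and 0.18 for 8 endothelial genes. Of the endothelial genes 4 were lower and 4 higher, with *Kdr* (0.76), *Tek* (0.65) and *Eng* (0.32) higher and *Flt1* (-0.75) lower at an unadjusted p under 0.05 (9.99% and 15.2% of all probes), *Tek* and *Eng* without overlap. Of the macrophage genes 8 were lower and 2 higher, with *Cd14* called lower (-2.10, adjusted p = 0.048) and *C1qa* higher without overlap (0.66, adjusted p = 0.0823). *Cd68* (-0.88) and *Itgam* (-0.34) were also lower at an unadjusted p under 0.05, as were 15.2% of all probes. Of 4 plasma cell markers, 2 were measured on enough arrays to test, and *Jchain* and *Cd79a* were above background on 2 arrays each. The acinar regulator *Ptf1a* was measured on 0 arrays. The part of these cells in the differences was not tested.

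**Figure D4:**
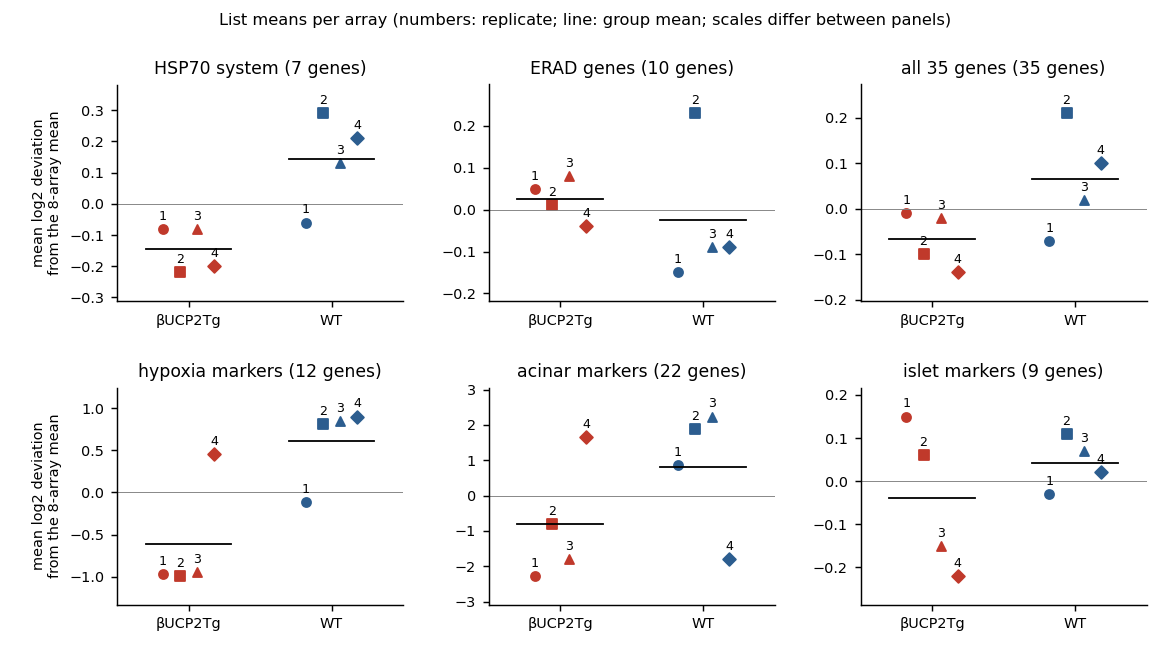
Mean log2 deviation from the 8-array mean, per array, for the 7 HSP70 system genes, the 10 ERAD genes, all 35 genes and the hypoxia, acinar and islet markers. Numbers are replicates and lines are group means. WT replicate 1 (-0.06) sits near the βUCP2Tg arrays for the HSP70 system, and βUCP2Tg replicate 4 sits with the WT arrays for hypoxia (0.46) but not for the HSP70 system (-0.20).

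Several genes were covered by more than 1 probe, and the probes did not give the same size of difference. Of the 35 genes, 21 had 2 or more tested probes, with 34 probes beside the brightest ones. Of these 34 probes, 26 were lower and 8 higher, 16 were lower and 1 was higher at an unadjusted p under 0.05 (15.2% and 9.99% of all probes), and 0 passed the adjusted p. Probes of 1 gene share RNA and arrays, so they are not separate evidence. The brightest probe was less negative than the mean of the others for 16 of 21 genes (76.2%). In the other 7824 genes with several tested probes this held for 64.3%, with a median gap of 0.07 against 0.09 in the 21 genes.

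Gaps were wide for *Hspa5*, *Ern1*, *Sec61a1*, *Derl1*, *Hyou1* and *Edem3*, and ran the other way for *Edem1*. The dimmer *Hspa5* probes gave differences of -0.62 and -0.67, against -0.24 on the brightest. They read 5.11, 4.89, 5.02 and 5.21 against 5.06, 6.04, 5.82 and 5.79, and 4.42, 4.12, 4.32 and 4.67 against 4.50, 5.38, 5.20 and 5.12, so WT replicates 2 to 4 were above all βUCP2Tg arrays on both. For *Ern1*, the brightest probe gave 0.07 and the other 4 gave -0.10, -0.65, -0.70 and -1.07. The probe at -1.07 was well above background on 2 βUCP2Tg and 3 WT arrays and that at -0.65 on 3 and 4, so these sizes rest partly on values not well above background. Those at -0.70 (adjusted p = 0.0979) and -0.10 (adjusted p = 0.687) were well above background on all 8 arrays. *Sec61a1* gave -0.05 on the brightest probe and -0.60 and -0.47 on the others, and *Derl1* 0.19 and -0.53. *Edem3* gave 0.16 on the brightest probe and 0.06 and -0.54 on the others, whereas *Edem1* gave -0.29 on the brightest and 0.12 on the other. All 4 *Hyou1* probes were lower, from -0.40 to -1.66, and *Dnajb9* gave -0.76 on its second probe. Of the 34 probes, 2 were lower and 1 higher without overlap (7.17% and 5.25% of all probes). These were the second *Canx* probe (-0.30), a dim *Dnajb11* probe (-0.82) and a second *Sel1l* probe, which was higher (0.43), whereas the remaining *Sel1l* probe gave -0.27. The second *Atf6* probe was measured on too few arrays to test.

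The 2 dimmer *Hspa5* probes lie in coding sequence and are printed because they show the larger difference for the central chaperone. The brightest *Hspa5* probe instead holds the polyadenylation signal letters AATAAA, which mark the 3′ end of a transcript, as do the brightest probes of *Ern1*, *Sec61a1* and *Dnajc10*. *Dnajc10* showed no such gap (0.01 against a mean of 0.04 on its others), and the brightest *Derl1* probe, with a wide gap, does not hold these letters.
*Hspa5* probe with a difference of -0.62: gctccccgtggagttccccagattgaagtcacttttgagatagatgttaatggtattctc
*Hspa5* probe with a difference of -0.67: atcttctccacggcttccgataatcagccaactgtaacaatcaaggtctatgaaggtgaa

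Over all 69 tested probes of the 35 genes, 7 (10.1%) held AATAAA and had a median difference of 0.01, while the 62 without it had a median of -0.24. Among all probes tested, 10.8% held it, with medians of 0.03 with and -0.03 without the signal. Whether the place of a probe on the transcript or its brightness goes with the smaller difference was not tested.

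**Figure D5:**
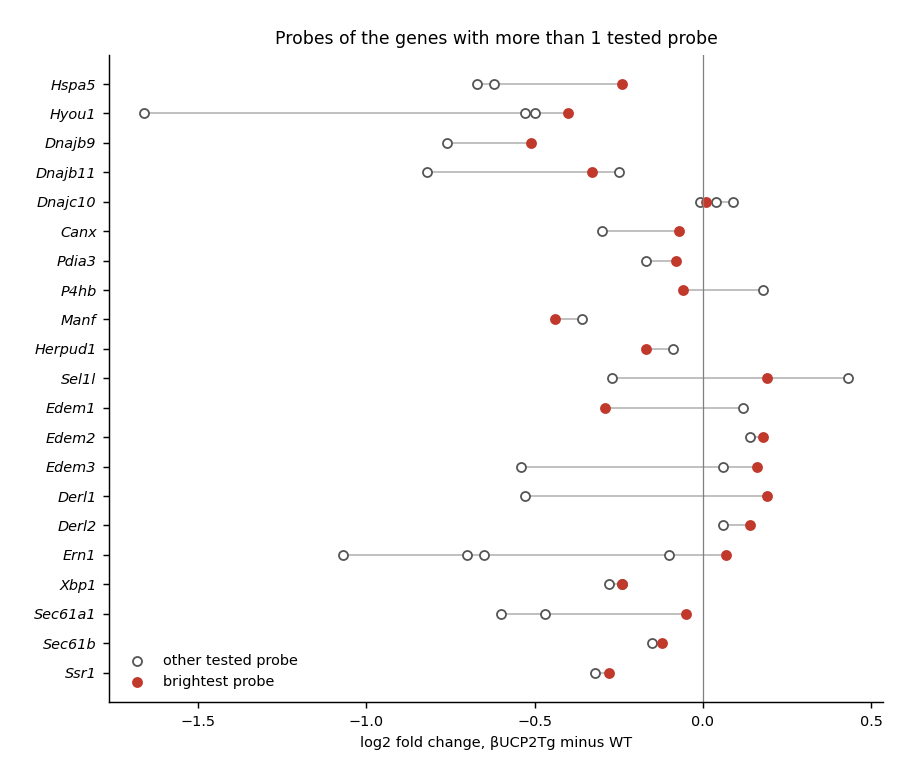
Log2 fold change (βUCP2Tg minus WT) of each tested probe of the 21 genes with more than 1 tested probe. Filled points are the brightest probe, by which the gene was read, and open points the others, and the open points of *Hspa5*, *Sec61a1* and *Derl1* lie at -0.47 or below, left of their filled points at -0.24, -0.05 and 0.19.

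The rest of the ER pathway was read in the same way from 79 further genes. Of these, 0 passed the adjusted p, 17 (21.5%) were lower and 3 (3.80%) higher at an unadjusted p under 0.05, where 15.2% and 9.99% of all probes were, and the groups did not overlap for 12 lower and 2 higher genes (7.17% and 5.25% of all probes). In the 4 lists that make up these genes, the share lower ran from 13.6% to 30% and the share higher from 0% to 10%. The median over the 79 genes was -0.08. In the PERK arm and its neighbours, 3 of 10 genes were lower and 1, the protease gene *Mbtps1* (0.35), was higher at that threshold. *Atf4*, the transcription factor translated when PERK is active, gave 7.83, 7.87, 7.76 and 7.60 in βUCP2Tg and 7.98, 8.33, 8.13 and 8.13 in WT islets, without overlap (difference -0.37, adjusted p = 0.104). *Ddit3* codes for CHOP, the factor linked to death under prolonged ER stress, and showed 2.84, 2.92, 2.83 and 2.82 against 3.01, 4.0, 3.39 and 3.32. Its groups did not overlap either, with a difference of -0.58 (adjusted p = 0.127). *Ppp1r15a* (GADD34), which reverses the translation block, differed by -0.57 (adjusted p = 0.12), also without overlap. *Eif2ak3*, which codes for PERK, differed by -0.39 (adjusted p = 0.207), with WT replicate 1 within the βUCP2Tg range.

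Among 25 further folding genes, 6 were lower and 1, *Cdnf* (0.68), was higher at an unadjusted p under 0.05. For this and the following lists, 15.2% of all probes were lower and 9.99% higher at that threshold. The oxidase gene *Ero1l*, which is also known to respond to hypoxia, was at 3.57, 3.51, 3.58 and 4.77 in βUCP2Tg and 4.38, 5.41, 5.25 and 5.29 in WT islets, a difference of -1.23 (adjusted p = 0.0992). βUCP2Tg replicate 4 overlapped the WT arrays for this gene, as it did for the hypoxia markers. *Txndc11* (-0.67), *Clgn* (-0.69) and *Dnajc25* (-0.33) were lower without overlap. Among 22 further ERAD genes, *Selenos* (-0.40), *Ube2j1* (-0.28) and *Ube2j2* (-0.28) were lower and *Aup1* (0.25) was higher at that threshold. *Selenos* and *Ubxn4* (-0.17), which were lower, and *Aup1* and *Rnf5* (0.19), which were higher, had no overlap between the groups. Among 22 genes of translocation, signal peptide cleavage and glycosylation, 5 were lower and 0 higher. *Sec61g*, the small channel subunit, had the smallest adjusted p of the 79 genes, 0.084. It gave 6.09, 6.14, 5.95 and 6.02 in βUCP2Tg and 6.34, 6.57, 6.38 and 6.51 in WT islets, a difference of -0.40. *Spcs2* (-0.38) and *Ostc* (-0.29) were lower without overlap. *Ero1l*, *Mbtps1*, *Cdnf*, *Ube2j1*, *Ube2j2*, *Ubxn4* and *Rnf5* lay outside the rule for named genes and were chosen after their values were seen.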

How the data were processed

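Total RNA of islets was labelled with 1 colour and hybridised to 8 arrays of an Agilent mouse 60-mer design. The deposited scanner files hold, per the file headers, the processed intensity of each spot from Feature Extraction 10.7.3.1. The authors also deposited a table of normalized log2 values, with gene symbols, probe sequences, fold changes and p-values. The authors' fold changes and p-values were not used. Their values lay 8.2369 to 8.6253 below the log2 intensities, as the median of each array. The 75th percentiles computed here were 8.7811 to 9.1607, so the 2 scalings have different references. Here log2 of the processed intensity minus the 75th percentile of its array was computed, outlier and control spots were left out, and spots of a probe were averaged. Probes well above background on at least 4 of 8 arrays (35363 of 56605) were tested with limma 3.58.1 in R 4.3.3, without covariates, with Benjamini-Hochberg adjustment, and called at an adjusted p under 0.05 and over 1.5-fold. Per-array list values are means of each gene's deviation from its 8-array mean.

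The 35 genes and all lists were chosen with earlier results of these data known. Named genes followed a rule: all 35 genes, values per array for those at an unadjusted p under 0.05 or without overlap and for the main sensors and chaperones, and of the other ER genes the 10 without overlap that had the smallest p, with *Eif2ak3*, *Atf4* and *Ddit3*. Of 80 other ER genes listed, 79 had a probe by symbol. Whether a sample came from 1 mouse or several was not settled, so the p-values measure the spread between these samples. The number of arrays limits the precision. Promoters were searched on both strands for exact matches. Alternatives covered filters, scaling, background correction, tests, probes and arrays left out.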

Additional observations from a re-analysis of the deposited data

Results flagged for a closer look

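Among 70 groups of 4 arrays (35 genes in each genotype), 4 held an array far from the other 3, by the gap to its nearest neighbour as a share of the group's range. Chance flags about 1 in 20 groups, so 3.5 such groups were to be reckoned with. *Atf6* was at 1.63 in βUCP2Tg replicate 2, against 1.75 in the other 3 arrays (gap share 0.96). *Derl2* was at 3.74 in WT replicate 3, against 4.0 to 4.03 (gap share 0.901). *Herpud1* was at 5.84 in WT replicate 2, against 5.43 to 5.48 (gap share 0.884). *Pdia4* was at 1.30 in WT replicate 1, against 1.70 to 1.78 (gap share 0.832), the array whose removal brought *Pdia4* past the adjusted p. The 4 arrays concerned were all different.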

How the results depend on the processing

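Of 21 alternatives, 16 could change a gene's difference, and 26 of the 35 genes kept their direction under all of these. Of the 560 values, taken to 2 decimals, 15 had the other sign and 6 were at 0, all for genes with differences of at most 0.19. After quantile normalization these were *Canx* (0.07), *Pdia3* (0.01), *P4hb* (0.04) and *Sec61a1* (0.07). *Sec61a1* was also at 0.01 with median scaling and 0.06 with normexp correction. With the mean of all measured probes *P4hb* was at 0.06, *Edem3* at -0.11, *Derl1* at -0.17 and *Ern1* at -0.49. With arrays left out, singly or WT replicate 1 together with βUCP2Tg replicate 4 (a choice made after seeing the data), *Sec61a1* ranged from -0.18 to 0.01, *Wfs1* from -0.14 to 0.02, *Ern1* from -0.01 to 0.31 and *Dnajc10* from -0.01 to 0.04. The count lower at an unadjusted p under 0.05 (8) was 3 after quantile normalization and with median scaling, where 12.9% and 11.9% of all probes were lower. It was 10 with normexp (28% of all probes) and with limma's intensity trend (15.7%). With the mean of all measured probes it was 11, where 14.3% of all genes were lower. The count higher (0) was 2 after quantile normalization (12.5% of all probes) and 1 with the percentile taken over probes measured on all arrays (11.1%), with normexp (8.32%), with the methods' t-test (8.98%) and with limma's intensity trend (10.4%). Genes without overlap and lower (3, with 7.17% of all probes) numbered 1 after quantile normalization (5.8%) and 7 with the mean of all probes (7.73% of genes), and those higher (1, with 5.25%) numbered 0 with normexp (3.83%). The median (-0.16) was -0.04 after quantile normalization. With normexp, 1 gene (*Hyou1*) passed the adjusted p, as did 8.91% of all probes as lower, and 28% of all probes were lower at an unadjusted p under 0.05, against 15.2% in the fit reported. Leaving out 1 array at a time gave 0 to 5 genes lower at the adjusted p, 0 to 2 called lower, 4 to 15 lower and 0 to 1 higher at an unadjusted p under 0.05, 3 to 15 lower and 1 to 2 higher without overlap, and a median from -0.20 to -0.11. Every upper end of the counts of lower genes came from leaving out WT replicate 1, where 8.44%, 5.67%, 18.4% and 15.3% of all probes were lower by these rules. The count of 4 came without WT replicate 2, WT replicate 4 or βUCP2Tg replicate 2 (11.3%, 15.4% and 9.87% of all probes), and that of 3 without WT replicate 2 or βUCP2Tg replicate 4 (8.95% and 16.6%). Over the 8 fits, 6.23% to 16.8% of all probes were higher at an unadjusted p under 0.05 and 5.68% to 14.7% without overlap. Without WT replicate 1 and βUCP2Tg replicate 4, 3 genes passed the adjusted p as lower (13.1% of all probes), 2 were called lower (9.25%), 13 were lower (21.1%) and 2 higher (18.4%) at an unadjusted p under 0.05, and 16 were lower (23.6%) and 4 higher (21.5%) without overlap. With a replicate block, 4 genes were lower at an unadjusted p under 0.05 (13.2% of all probes) and 0 passed the adjusted p. Of the same-numbered arrays, only those of replicate 1 deviated together (correlations 0.44, -0.05, -0.01 and -0.24). With so few arrays this does not settle whether the numbers pair the samples. Where no cause is given, the cause was not tested.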
